A study of Homo sapiens with 6 samples.

Results

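The vesicle coat, golgin and Golgi transport genes described here are 42 genes that carry proteins between the endoplasmic reticulum (ER) and the Golgi apparatus, and they were picked by gene symbol from the 37871 Ensembl genes counted in 6 RNA-seq libraries. The list held 43 names, of which SEC12 is an older name of PREB. All 42 genes were in the table, and all 42 had enough counts to be tested. They comprise 4 ARF GTPases, the ARF activator GBF1, the transcription factor CREB3 and 8 subunits of the COPI coat. The rest are 12 COPII genes, 8 golgins and stacking proteins, 5 cargo receptors and 3 tethers and SNAREs. The libraries came from T24, an established epithelial line from a human bladder carcinoma. Of these, 3 received vehicle and 3 received lipopolysaccharide (LPS, a bacterial cell wall component) together with nigericin, an ionophore that exchanges potassium for protons across membranes, triggers NLRP3 signalling and disturbs the ion and proton balance of the Golgi. All were grown in high-glucose DMEM with antibiotics, and no genetic change is named for either group. The sources used here give neither dose nor duration, and no group had LPS or nigericin alone, so a change cannot be assigned to either agent.

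Secretory cargo leaves the ER in vesicles coated with COPII. PREB, an ER membrane protein, loads the GTPase SAR1 with GTP, SAR1 recruits SEC23 with SEC24, which picks the cargo, and SEC13 with SEC31 forms the outer cage at exit sites scaffolded by SEC16. COPI, a coat of several kinds of subunit recruited by ARF GTPases after activation by GBF1, returns ER residents and escaped cargo, with KDEL receptors and TMED proteins as its cargo receptors. Golgins are long coiled-coil proteins that catch vesicles at the Golgi, GORASP proteins link its cisternae, and ionophores of the nigericin and monensin kind are used in the laboratory to provoke a Golgi stress response, in which CREB3 raises ARF4 and the factor TFE3 raises golgins and glycosylation genes.

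A level in CPM is a count per 1000000 of the TMM-adjusted library size. Group values are mean ± SD (n = 3), and a gene is called changed at a Benjamini-Hochberg adjusted p under 0.05 over all 19170 tested genes in edgeR's quasi-likelihood test. Totals per library were 66180407 to 89152224 counts, so the spread between libraries and not counting sets the error of these genes. The keratin genes KRT7, KRT8, KRT18 and KRT19 were present at 160.0 CPM or more in both groups, and EPCAM was at 1.93 CPM in vehicle. CDH1 and the uroplakin genes UPK1A, UPK1B and UPK3A were too low to test. The urothelial factors PPARG, GATA3 and FOXA1 were at 83.5, 18.3 and 7.08 CPM in vehicle. The 7 urothelial markers summed to 107 to 111 CPM with vehicle and 55.7 to 61.1 CPM after treatment. The 6 epithelial markers summed to 6535 to 9536 CPM with vehicle and 3509.9 to 4512 CPM after treatment. The 5 leukocyte markers, of which 3 were listed in the table, summed to at most 0.157 and 0.801 CPM in any vehicle and treated library, and the 5 fibroblast markers to at most 5.86 and 4.31 CPM. Fewer cells of a type and less RNA per cell cannot be told apart in bulk RNA. Nothing in the labels says that replicates were separate cultures or that both groups were prepared together, so each p-value reflects how far these particular libraries differ, and a difference in preparation cannot be told apart from the treatment. Counts of mitochondrial genes took 6.49% to 7.33% of each vehicle library and 12% to 12.4% of each treated library.

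Fold changes moved with GC content across tested protein-coding genes, and among the 42 trafficking genes with transcript length as well. Results are therefore also given with per-library loess offsets for both. These offsets remove any trend with either property, including one that the treatment caused. Among tested protein-coding genes with a transcript GC content below 45%, 56.1% were called higher and 6.02% lower, against 14.4% and 48% at 50% or above. The vehicle libraries also differed along this axis. Of the 18 trafficking genes below 45% GC, 17 were lowest in vehicle library 2 among the vehicle libraries and 15 were highest in vehicle library 3. Over these 18 genes the median log2 deviation from the 6-library mean was -0.45, -0.80 and -0.17 in vehicle libraries 1, 2 and 3 and 0.56, 0.48 and 0.47 in the treated ones. The part of this trend in the results was not tested beyond the offsets and the fits without each library.

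Most of the trafficking genes were higher after LPS plus nigericin, led by the COPII cargo adaptor SEC24A, while the COPII activator PREB fell. Of the 42 genes, 24 rose, 9 fell and 9 did not pass, so 78.6% were called against 55.3% of all tested genes. All tested genes include some with far lower counts, whereas the lowest vehicle mean among the 42 was 6.68 CPM. Under a filter of 1 CPM in at least 3 libraries, 33 of the 42 were called, against 68.5% of 13808 genes. By direction, 57.1% of the 42 rose against 28.9% of all tested genes, and 21.4% fell against 26.4%. Their median log2 fold change was 0.42, and that of all tested genes was 0.00158. At least 2-fold changes were called for 11 genes that rose (17.8% of all tested genes) and for PREB alone among those that fell (14.3% of all tested genes). Treated and vehicle libraries were fully separated for 35 of the 42, against 67% of all tested genes. These were 26 higher (35% of all tested genes) and 9 lower (32%). With the GC and length offsets 18 rose and 10 fell, against 23.4% and 27% of the 18620 genes that could be fitted. The median was then 0.14 for the 42 genes and -0.0689 for all fitted genes. Of the genes called in the fit without offsets, 16 also rose and 7 also fell with them, and SAR1B was called in opposite directions. Leaving out vehicle library 2 gave 33 called genes, and leaving out vehicle library 3 moved the median to 0.61.

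**Figure D1:**
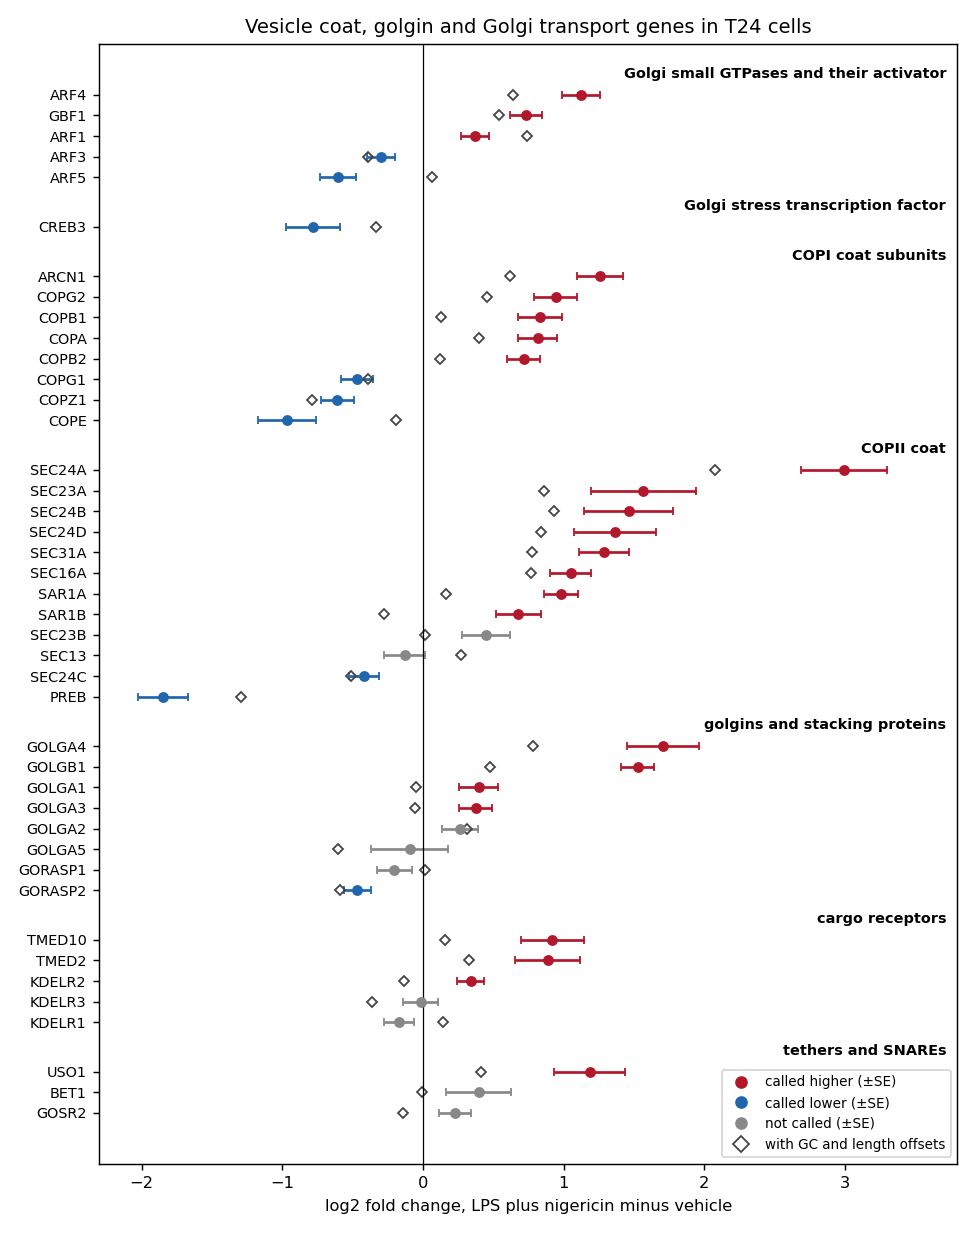
Log2 fold change of each of the 42 genes (horizontal axis, LPS plus nigericin minus vehicle, filled points with ±SE from edgeR) by role, coloured by call, with the value under the GC and length offsets as an open diamond. SEC24A stands farthest to the right at 3.00 and PREB farthest to the left at -1.85, and the COPI subunits split into 5 that rose and 3 that fell.

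The COPII genes held the extremes in both directions. Of 12, 8 rose, 2 fell and 2 did not pass, so 83.3% were called against 55.3% of all tested genes. With the offsets 7 rose and 3 fell, where 23.4% of all fitted genes rose and 27% fell. The median log2 fold change was then 0.52, against 1.02 without them. SEC24A, which binds export signals in cargo proteins, stood at 14.2, 7.26 and 16.6 CPM in the vehicle libraries and 122, 93.4 and 88.2 CPM after treatment. Every treated library was far above the highest vehicle library, and SEC24A rose 7.97-fold (log2 difference 3.00 with SE 0.306, adjusted p = 0.000217 in edgeR), or by 2.08 with the offsets. PREB, the exchange factor that switches on SAR1, stood at 119.8, 137 and 98.3 CPM in the vehicle libraries and 26.8, 37 and 35.1 CPM after treatment. It fell 3.6-fold in all 3 treated libraries, which lay below every vehicle library (log2 difference -1.85 with SE 0.176, adjusted p = 0.000165 in edgeR), and was at -1.30 with the offsets.

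The other SEC24 genes split. SEC24B was at 5.89, 4.39 and 9.76 CPM in the vehicle libraries and 23.9, 16.5 and 14.9 CPM after treatment and rose (log2 difference 1.46 with SE 0.315, adjusted p = 0.00538 in edgeR). SEC24D was at 23.3, 12.9 and 30.1 CPM in the vehicle libraries and 67.7, 47.1 and 56.2 CPM after treatment and rose as well (log2 difference 1.37 with SE 0.293, adjusted p = 0.00534 in edgeR). SEC24C, the most abundant paralog per kilobase in vehicle, was at 128, 145 and 133 CPM in the vehicle libraries and 102, 94.9 and 106 CPM after treatment. Its groups did not overlap, and it fell (log2 difference -0.42, edgeR adjusted p = 0.0106). All 3 calls held with the offsets, at 0.93, 0.84 and -0.51. SEC24A with SEC24B and SEC24C with SEC24D form the pairs of closest relatives in this family, so genes of both pairs were among those that rose. SEC24C shares 2293 bases of exon with the transcript AC022400.8 on the opposite strand.

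SEC23A, which joins SEC24 in the inner coat and speeds GTP hydrolysis by SAR1, was at 19, 10.7 and 31.7 CPM in the vehicle libraries and 78.2, 46.5 and 57.4 CPM after treatment. Vehicle libraries spread widely, yet the lowest treated library exceeded the highest of them, and SEC23A rose 2.96-fold (log2 difference 1.57 with SE 0.373, adjusted p = 0.00841 in edgeR). Its paralog SEC23B was at 61.8, 47.2 and 71.8 CPM in the vehicle libraries and 86.7, 71.8 and 88.2 CPM after treatment, where the groups overlapped, and did not pass (log2 difference 0.45, edgeR adjusted p = 0.0545; DESeq2 adjusted p = 0.0370). SEC31A of the outer cage went from 66.4 ± 15.2 to 162 ± 14.4 CPM (log2 difference 1.29 with SE 0.178, adjusted p = 0.000750 in edgeR), and the exit site scaffold SEC16A from 77.4 ± 11.2 to 160.4 ± 18.7 CPM (log2 difference 1.05, edgeR adjusted p = 0.000773). SEC13, the partner of SEC31 that also serves in nuclear pores, did not pass at 149 ± 26.2 CPM with vehicle and 136 ± 10.6 CPM with LPS plus nigericin. With the offsets SEC23A was at 0.86, SEC31A at 0.78 and SEC16A at 0.77, and SEC13 turned from -0.13 to 0.27 and passed (edgeR adjusted p = 0.0162).

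SAR1A, the GTPase that starts coat assembly, was at 63.4, 55 and 67.5 CPM in the vehicle libraries and 131, 123 and 114 CPM after treatment and rose 1.98-fold without overlap (log2 difference 0.98 with SE 0.121, adjusted p = 0.000474 in edgeR). SAR1B, its paralog linked to export of large lipoproteins, was at 28.6, 24.6 and 36.7 CPM in the vehicle libraries and 50.4, 47.4 and 46.2 CPM after treatment and rose by 0.68 on the log2 scale (edgeR adjusted p = 0.00845). Neither rise held with the offsets. SAR1A was then at 0.16 (edgeR adjusted p = 0.154), and SAR1B was called lower at -0.27 (edgeR adjusted p = 0.0329). SAR1B and SEC24A lie on opposite strands of chromosome 5 and share 385 bases of exon, and since counting by strand is not stated, reads from that stretch cannot be told apart.

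The promoters of the 4 genes with the largest changes among those with an entry in the RefSeq table are shown because their transcripts moved most and in both directions. The window runs from 250 bases before to 50 bases after the annotated start, 5′ to 3′ on the gene's strand, on GRCh38.p14. Capitals mark ACGTGGC, the published Golgi stress response element (GASE) bound by TFE3, and TGACGTGG, the unfolded protein response element (UPRE) form bound by XBP1 and ATF6, on either strand. Both overlap where TGACGTGGC occurs.
SEC24A promoter chr5:134648535-134648834 plus strand: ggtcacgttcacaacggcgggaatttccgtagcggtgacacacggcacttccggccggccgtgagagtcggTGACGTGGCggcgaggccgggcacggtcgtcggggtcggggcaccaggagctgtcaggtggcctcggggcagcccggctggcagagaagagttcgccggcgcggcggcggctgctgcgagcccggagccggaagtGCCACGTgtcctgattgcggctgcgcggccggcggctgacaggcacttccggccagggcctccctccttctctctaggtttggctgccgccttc
SEC23A promoter chr14:39103186-39103485 minus strand: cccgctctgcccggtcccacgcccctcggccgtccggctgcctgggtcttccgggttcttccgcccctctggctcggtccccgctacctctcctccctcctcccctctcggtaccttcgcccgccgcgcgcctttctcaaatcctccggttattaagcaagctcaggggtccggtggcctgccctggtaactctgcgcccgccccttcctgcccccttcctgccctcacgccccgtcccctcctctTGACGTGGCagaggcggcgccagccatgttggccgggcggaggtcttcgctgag
GOLGB1 promoter chr3:121749692-121749991 minus strand: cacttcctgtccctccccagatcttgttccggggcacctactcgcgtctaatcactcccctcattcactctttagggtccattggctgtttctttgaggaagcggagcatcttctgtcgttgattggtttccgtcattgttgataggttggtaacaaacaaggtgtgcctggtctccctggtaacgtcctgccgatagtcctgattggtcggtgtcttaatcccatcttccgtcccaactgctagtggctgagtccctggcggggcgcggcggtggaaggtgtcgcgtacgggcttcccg
PREB promoter chr2:27134587-27134886 minus strand: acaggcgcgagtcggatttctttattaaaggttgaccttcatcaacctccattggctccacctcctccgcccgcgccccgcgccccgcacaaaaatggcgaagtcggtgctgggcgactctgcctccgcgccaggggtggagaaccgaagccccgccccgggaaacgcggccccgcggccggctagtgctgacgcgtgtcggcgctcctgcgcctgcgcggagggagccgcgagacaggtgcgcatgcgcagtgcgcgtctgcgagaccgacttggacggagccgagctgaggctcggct
SEC24A carries TGACGTGGC 179 bases before its start and a second ACGTGGC on the opposite strand nearer to it, and SEC23A carries TGACGTGGC across its start. GOLGB1, which also rose, and PREB, which fell, hold neither sequence in this window.

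Both sequences were common in the promoters of the trafficking genes. Of the 37 genes with an entry (ARF4, GOLGA4, KDELR2, SEC24D and USO1 had none), 18 held ACGTGGC (48.6%), against 3.22% of all 35116 promoters of the same length and 5.39% of 11118 tested protein-coding genes with an entry. TGACGTGG was in 11 of the 37 (29.7%), against 0.729% of all promoters and 1.21% of the tested protein-coding genes. A gene counted when any of its promoter entries held the sequence, so the share over genes is the like measure. Each of the 11 is shown with 10 bases on either side, on the strand that reads TGACGTGG, to show what follows the shared letters.
SEC24A chr5:134648596-134648624 plus strand: tgagagtcggTGACGTGGCggcgaggccg
SEC23A chr14:39103221-39103249 minus strand: cccctcctctTGACGTGGCagaggcggcg
SEC16A chr9:136484708-136484736 plus strand: tcagtccggcTGACGTGGCaccagggcca
ARF1 chr1:228082682-228082710 plus strand: ccggaggcgcTGACGTGGCcgccgtcaga
GOLGA1 chr9:124941248-124941276 minus strand: ggccgctcgcTGACGTGGCgaactgggct
GOLGA5 chr14:92794115-92794143 minus strand: tgcgtgcgtgTGACGTGGCtcgccgccgg
KDELR3 chr22:38468039-38468067 minus strand: ggccgggcggTGACGTGGCcagggcggcc
COPA chr1:160343228-160343255 minus strand: agagggtcgcTGACGTGGaggcgtccga
COPB1 chr11:14499842-14499869 plus strand: agtccttggcTGACGTGGaagggggtgg
COPB2 chr3:139389633-139389660 plus strand: tcagactgacTGACGTGGaacttccggg
GBF1 chr10:102245527-102245554 minus strand: gtcagctcacTGACGTGGtaactagcct
SEC24A to KDELR3 continue with C, which completes ACGTGGC, and COPA to GBF1 continue with A or T. COPB2 holds a further TGACGTGG and a separate ACGTGGC.

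The direction of the genes with each sequence depended on the GC and length offsets. Of the 11 genes with TGACGTGG, 9 rose, 0 fell and 2 (GOLGA5 and KDELR3) did not pass, with a median log2 fold change of 0.73. With the offsets 6 rose, 2 (GOLGA5 and KDELR3) fell and 3 did not pass, with a median of 0.40. Of the 26 without it, 10 rose, 9 fell and 7 did not pass, with a median of 0.24, and with the offsets 8 rose and 8 fell. Of the 18 genes with ACGTGGC, 11 rose and 4 fell (CREB3, COPG1, SEC24C and GORASP2), and their median of 0.39 was close to the 0.40 of the 19 without it. With the offsets 8 of the 18 rose and 6 fell. Beside these offset counts, 23.4% of all fitted genes rose and 27% fell. Without offsets, 41.5% of all tested protein-coding genes with TGACGTGG in this window rose and 20.7% fell, and 37.7% of those with ACGTGGC rose and 29.7% fell. The cAMP response element TGACGTCA and the ER stress response element (ERSE) were in no promoter of the 37 genes. They were in 3.64% and 0.153% of the tested protein-coding genes with an entry. TCACGTGA, the palindrome read by TFE3 and TFEB, was in GOSR2 alone (2.19% of those protein-coding genes). A match is a run of letters and not a measured binding site.

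The genes of the COPI coat subunits did not move together. Of 8 genes, 5 rose, 3 fell and 0 did not pass, where 55.3% of all tested genes were called. With the offsets 3 rose and 2 fell, where 23.4% of all fitted genes rose and 27% fell. The median log2 fold change was then 0.13, against 0.77 without them. ARCN1, the delta subunit, was at 177, 134 and 199.8 CPM in the vehicle libraries and 455, 388 and 379 CPM after treatment and rose 2.4-fold (log2 difference 1.26 with SE 0.165, adjusted p = 0.000596 in edgeR). COPA, the alpha subunit that reads KKXX retrieval signals, was at 145, 117 and 157 CPM in the vehicle libraries and 272, 231 and 235 CPM after treatment (log2 difference 0.82 with SE 0.140, adjusted p = 0.00193 in edgeR). COPB2, which encodes beta-prime and forms the outer layer with COPA, was at 101, 82.4 and 93.2 CPM in the vehicle libraries and 161, 143 and 150.0 CPM after treatment (log2 difference 0.72, edgeR adjusted p = 0.00154). In these and in COPB1, the beta subunit, from 128 ± 25.1 to 229 ± 15.5 CPM (log2 difference 0.83), the lowest treated library exceeded the highest vehicle library. ARCN1 and COPA kept their calls with the offsets, at 0.62 and 0.40, and COPB1 and COPB2 did not, at 0.13 and 0.12 (edgeR adjusted p = 0.144 and 0.301).

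COPE, COPG1 and COPZ1 went the other way. COPE, the epsilon subunit, was at 249, 335 and 196 CPM in the vehicle libraries and 112, 152 and 136 CPM after treatment and fell 1.95-fold (log2 difference -0.96 with SE 0.206, adjusted p = 0.00527 in edgeR), but was at -0.19 with the offsets and did not pass (edgeR adjusted p = 0.0988). Its transcript has the highest GC content of the 42 genes, at 62.9%. COPZ1, the zeta subunit, was at 209, 225 and 187 CPM in the vehicle libraries and 127, 148 and 132 CPM after treatment, and it fell (log2 difference -0.61, edgeR adjusted p = 0.00327), or was at -0.79 with the offsets. COPG1, the main gamma subunit, was at 204, 229 and 189 CPM in the vehicle libraries and 153, 139.6 and 157 CPM after treatment (log2 difference -0.47, edgeR adjusted p = 0.00959), or -0.39 with the offsets. COPG2, its paralog, was at 17.4, 13.8 and 17.1 CPM in the vehicle libraries and 29.4, 29 and 34.4 CPM after treatment and rose (log2 difference 0.94 with SE 0.150, adjusted p = 0.00138 in edgeR), or by 0.45 with the offsets. COPG2 shares 228 bases of exon with MEST on the opposite strand, an imprinted gene that itself went from 10.6 to 33.7 CPM, and the part of those reads in the COPG2 value was not tested.

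Among the ARF GTPases, ARF4 and ARF1 rose while ARF5 and ARF3 fell. ARF4, the ARF that CREB3 controls in the Golgi stress response, was at 119, 94.4 and 130.2 CPM in the vehicle libraries and 247, 254 and 249 CPM after treatment, with treated libraries close together and far above vehicle, and rose 2.18-fold (log2 difference 1.13 with SE 0.136, adjusted p = 0.000431 in edgeR). ARF1, the main recruiter of COPI, was at 463, 433 and 448 CPM in the vehicle libraries and 563, 599 and 576 CPM after treatment (log2 difference 0.37, edgeR adjusted p = 0.0136). ARF5 was at 127, 133 and 113 CPM in the vehicle libraries and 70.5, 88.9 and 86.2 CPM after treatment and fell (log2 difference -0.60, edgeR adjusted p = 0.00526). ARF3, a close relative of ARF1 that acts at the trans-Golgi, was at 218, 239.9 and 217 CPM in the vehicle libraries and 187, 181 and 179 CPM after treatment and fell by 0.30 on the log2 scale (edgeR adjusted p = 0.0327). Both GTPases that rose kept their calls with the offsets, ARF4 at 0.64 and ARF1 at 0.74, as did ARF3 at -0.39, whereas ARF5 was at 0.0635 (edgeR adjusted p = 0.557). The ARF1 call was lost without vehicle library 1 or treated library 2 or 3, and the ARF3 call without vehicle library 1 or any treated library.

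GBF1, an exchange factor that activates ARF GTPases at the early Golgi, was at 111, 123 and 107 CPM in the vehicle libraries and 205, 181 and 179.9 CPM after treatment. It rose (log2 difference 0.73 with SE 0.112, adjusted p = 0.00119 in edgeR), or by 0.54 with the offsets. CREB3 itself, a factor released from the ER and Golgi membrane by cleavage, was at 164, 218 and 129.6 CPM in the vehicle libraries and 86.6, 106 and 105 CPM after treatment. All treated libraries lay below all vehicle libraries, and CREB3 fell 1.72-fold (log2 difference -0.78 with SE 0.193, adjusted p = 0.00991 in edgeR), with -0.34 under the offsets (edgeR adjusted p = 0.0423). Without vehicle library 2, its highest, CREB3 was at -0.57 and still passed. ARF4 RNA was higher and CREB3 RNA lower in the same libraries, and cleavage of the CREB3 protein was not measured.

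**Figure D2:**
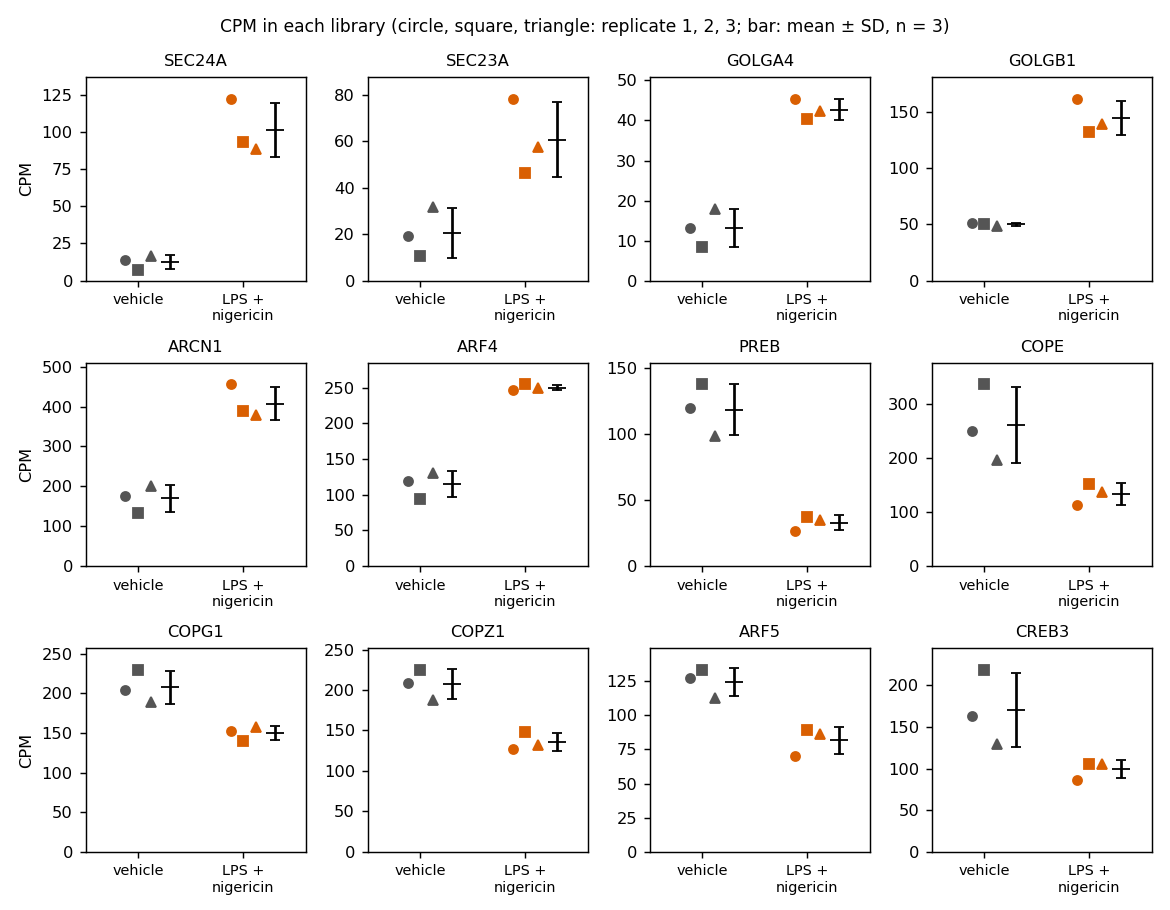
CPM (vertical axes, linear from 0) of 12 of the genes in each vehicle (grey) and LPS plus nigericin (orange) library, with replicates 1, 2 and 3 as circle, square and triangle and a bar for mean ± SD over n = 3. In each panel shown the groups do not overlap, and vehicle library 2 (square) is the lowest vehicle value for SEC24A, SEC23A, GOLGA4, ARCN1 and ARF4 and the highest for PREB, COPE, COPG1, COPZ1, ARF5 and CREB3.

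Of the 8 golgins and stacking proteins, 4 rose, 1 fell and 3 did not pass, so 62.5% were called, near the 55.3% of all tested genes. With the offsets 3 rose and 2 fell, where 23.4% of all fitted genes rose and 27% fell. The median log2 fold change turned from 0.32 to -0.0172. GOLGA4 and GOLGB1 changed most. GOLGA4 (golgin-245), which captures vesicles at the trans-Golgi, was at 13, 8.35 and 17.9 CPM in the vehicle libraries and 45.4, 40.3 and 42.5 CPM after treatment (log2 difference 1.71 with SE 0.256, adjusted p = 0.00108 in edgeR). GOLGB1 (giantin), a membrane-anchored golgin of the cisternal rims, was at 51.1, 50.7 and 48.8 CPM in the vehicle libraries and 162, 133 and 139.6 CPM after treatment (log2 difference 1.53 with SE 0.115, adjusted p = 7.48e-05 in edgeR), with an SD of 1.25 CPM over the vehicle libraries. With the offsets GOLGA4 was at 0.78 and GOLGB1, with a transcript of 11187 bases, at 0.47 (edgeR adjusted p = 0.0423). GOLGA3 went from 48.5 ± 3.04 to 62.9 ± 5.16 CPM and GOLGA1, a golgin of the trans-Golgi, from 14.6 ± 1.51 to 19.2 ± 1.27 CPM (edgeR adjusted p = 0.0260 and 0.0424). Both turned to -0.0551 and -0.0516 with the offsets and did not pass, and GOLGA3 lost its call without vehicle library 1 or treated library 1 or 2, as GOLGA1 did without any library other than vehicle library 3.

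GORASP2, which tethers medial cisternae, was at 119, 115 and 114 CPM in the vehicle libraries and 84.1, 84.9 and 83.2 CPM after treatment. It fell with little spread (log2 difference -0.47 with SE 0.0949, adjusted p = 0.00425 in edgeR), and was at -0.59 with the offsets. Its paralog GORASP1, which binds the golgin GOLGA2 on cis cisternae, did not pass at 55.4 ± 5.28 CPM with vehicle and 48 ± 4.1 CPM with LPS plus nigericin (log2 difference -0.20, edgeR adjusted p = 0.197). GOLGA2 (GM130) was at 55.9 ± 7.96 CPM with vehicle and 67.1 ± 1.15 CPM with LPS plus nigericin and did not pass (edgeR adjusted p = 0.121), although its groups did not overlap. It passed with the offsets at 0.32 (edgeR adjusted p = 0.0380). GOLGA2 pseudogenes in the table held up to 72.4% as many counts as GOLGA2 itself, so reads could be split between them. GOLGA5 (golgin-84) was at 19.2 ± 7.66 CPM with vehicle and 18 ± 1.3 CPM with LPS plus nigericin, with a log2 fold change of -0.0938, and was called lower at -0.60 with the offsets (edgeR adjusted p = 0.0168).

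Among the cargo receptors the TMED genes and KDELR2 rose and the other KDEL receptors did not pass, so 3 of 5 were called (60%, against 55.3% of all tested genes). With the offsets 1 rose (TMED2) and 1 fell (KDELR3), where 23.4% of all fitted genes rose and 27% fell. TMED2 and TMED10, p24 proteins that form a complex in COPI and COPII vesicles, had nearly parallel values. TMED2 was at 88.8, 59.95 and 122 CPM in the vehicle libraries and 172, 167 and 163 CPM after treatment (log2 difference 0.89 with SE 0.230, adjusted p = 0.0121 in edgeR). TMED10 was at 101, 64.7 and 129 CPM in the vehicle libraries and 197, 173 and 188 CPM after treatment (log2 difference 0.92 with SE 0.227, adjusted p = 0.00965 in edgeR). In both genes vehicle library 2 lay about as far below vehicle library 3 as the vehicle mean lay below the treated mean. With the offsets TMED2 was at 0.33 (edgeR adjusted p = 0.0266) and TMED10 at 0.16, which did not pass (edgeR adjusted p = 0.192). KDELR2 was at 163, 155 and 172 CPM in the vehicle libraries and 211, 206 and 204 CPM after treatment (log2 difference 0.34, edgeR adjusted p = 0.0189), a call lost without vehicle library 1 or any treated library, with library totals in place of TMM, and with the offsets, where it was at -0.13. KDELR1, the most abundant receptor per kilobase, was at 237 ± 7.6 CPM with vehicle and 211 ± 16.8 CPM with LPS plus nigericin and KDELR3 at 44.2 ± 4.76 CPM with vehicle and 43.8 ± 2.57 CPM with LPS plus nigericin (edgeR adjusted p = 0.206 and 0.929). KDELR3 was called lower at -0.37 with the offsets.

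Of the tethers and SNAREs only USO1 (p115), the long tether that links COPI and COPII vesicles to the cis-Golgi, passed. USO1 was at 29.2, 18 and 37.9 CPM in the vehicle libraries and 73.1, 63.2 and 57.3 CPM after treatment and rose 2.27-fold (log2 difference 1.19 with SE 0.253, adjusted p = 0.00522 in edgeR), or by 0.41 with the offsets. The SNARE genes BET1 and GOSR2, which form a fusion complex with SEC22B and STX5 between ER and Golgi, did not pass. BET1 was at 12.5 ± 3.98 CPM with vehicle and 16.4 ± 0.965 CPM with LPS plus nigericin (log2 difference 0.40, edgeR adjusted p = 0.175) and GOSR2 at 50.9 ± 4.86 CPM with vehicle and 59.5 ± 0.545 CPM with LPS plus nigericin (log2 difference 0.23, edgeR adjusted p = 0.126). GOSR2 values did not overlap, and BET1 values did. In fits without 1 library, BET1 passed without vehicle library 3 and GOSR2 without vehicle library 2.

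Shares shifted among paralogs, while the gene with the largest share of each family was the same in both groups. Levels of different genes were compared as CPM per kilobase of the principal transcript. SEC24A made up 5.92%, 3.06% and 6.27% of the summed SEC24 level in the vehicle libraries and 29.8%, 28.6% and 25.3% in the treated libraries. SEC24C made up 74.7%, 85.3% and 69.9% and then 34.7%, 40.5% and 42.5%. The shares did not overlap for either gene, and SEC24C, still the largest share after treatment, was then below the other SEC24 genes together. The summed SEC24 level itself went from 39.2 ± 2.48 to 57.5 ± 6.81 CPM per kb. The share of SEC23A in the SEC23 pair went from 21.3% ± 5.56 to 38% ± 4.51, that of COPG2 in the COPG pair from 7.16% ± 1.39 to 16.8% ± 0.922, and that of ARF4 among the 4 ARF genes from 15% ± 2.3 to 27% ± 0.512 (mean ± SD, n = 3). ARF1 stayed the largest ARF share, at 48.6% ± 0.699 to 51.8% ± 0.389, and the share of ARF5 went from 24.5% ± 2.17 to 13.3% ± 1.22. Among the KDEL receptors KDELR2 went from 24.1% ± 0.293 to 30.9% ± 1.91 while the summed level was 235 ± 9.88 and 233 ± 11.3 CPM per kb in vehicle and treated libraries, with overlapping values.

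**Figure D3:**
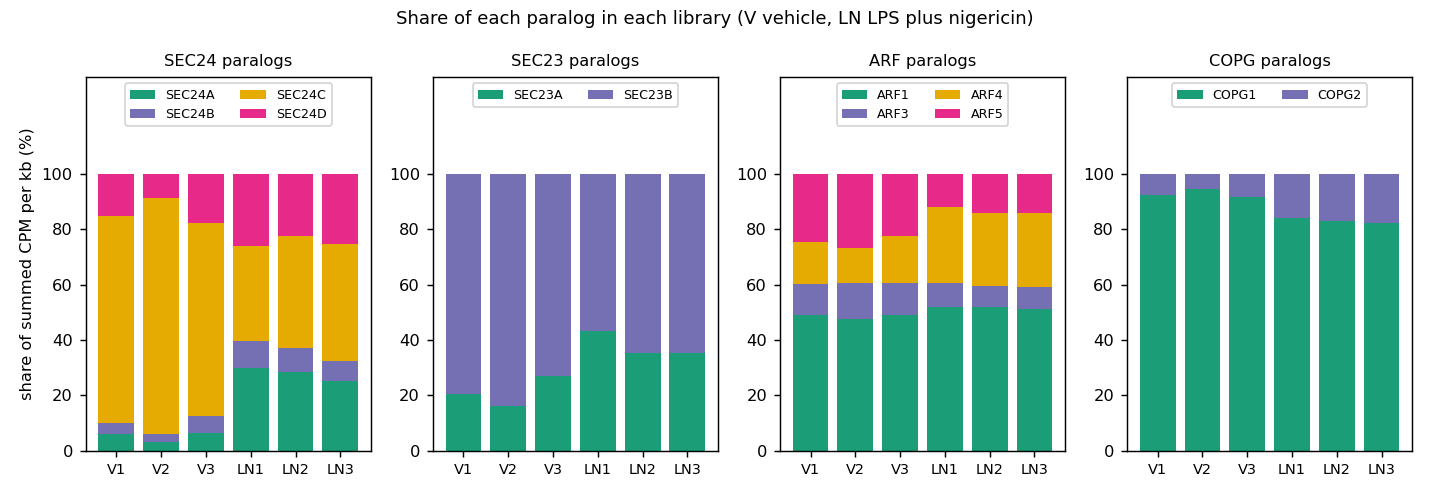
Share of each paralog in the family's summed CPM per kilobase (vertical axis, percent) in each library for the SEC24, SEC23, ARF and COPG families; V1 to V3 are vehicle and LN1 to LN3 LPS plus nigericin libraries. SEC24C falls from 76.6% to 39.2% of the SEC24 level and SEC24A grows from 5.09% to 27.9%.

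The ratio of paralogs within a library does not depend on the scaling between libraries. Of 11 such ratios, 10 did not overlap between groups, where 67% of all tested genes taken singly did not overlap. No such share was computed for ratios of other gene pairs. The exact two-sided permutation test gave p = 0.1 for each of the 10, the smallest that 3 against 3 libraries allow. None of the ratios could therefore reach 0.05 (Benjamini-Hochberg 0.11 over the 11). The mean log2 ratio of SEC24D to SEC24C went from -2.70 ± 0.705 to -0.84 ± 0.223, of SEC24A to SEC24B from 0.92 ± 0.299 to 2.47 ± 0.110 and of COPG1 to COPG2 from 3.69 ± 0.321 to 2.28 ± 0.0953. That of SEC23A to SEC23B went from -1.67 ± 0.481 to -0.46 ± 0.273, and the ARF5 to ARF1 ratio from -1.85 ± 0.145 to -2.83 ± 0.146. ARF4 to ARF1 went from -1.98 ± 0.207 to -1.21 ± 0.0227, and SAR1A to SAR1B from 1.06 ± 0.159 to 1.35 ± 0.0442. The ratio of KDELR3 to KDELR1 overlapped (exact permutation p = 0.2). A ratio still carries any trend with GC content and length, and the part of that trend in these ratios was not tested. It does not show which of the paralogs moved.

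By level per kilobase, COPE and ARF1 were the highest of the 42 genes in vehicle, at 228 ± 61.6 and 223 ± 7.55 CPM per kb, and did not differ beyond the spread of COPE. ARF1 led after treatment at 289 ± 9.16 CPM per kb, followed by ARF4 at 151 ± 2.39, KDELR1 at 136 ± 10.8 and COPE at 117 ± 17.5, of which KDELR1 and COPE lay within their spread of each other. GOLGA4, SEC24B and SEC24A were the lowest in vehicle, at 1.68 ± 0.612, 1.77 ± 0.733 and 2.01 ± 0.770 CPM per kb, and did not differ beyond their spread. After treatment SEC24A was at 16.1 ± 2.9 CPM per kb, above SEC24B at 4.88 ± 1.27 and GOLGA4 at 5.5 ± 0.325. Within the COPI coat the vehicle levels ran from 5.13 ± 0.648 for COPG2 and 27.4 ± 2.75 for COPB2 to 109 ± 9.85 for COPZ1 and 228 ± 61.6 CPM per kb for COPE. After treatment COPE was at 117 ± 17.5 and ARCN1 at 106 ± 10.8 CPM per kb, within their spread of each other, and the levels of the COPI genes other than COPG2 lay between 45.1 ± 2.71 and COPE. RNA levels carry no measure of the assembled coats.

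Direction followed base composition among these genes, as it did among all tested protein-coding genes. Of the 18 genes below 45% GC, 16 rose and 0 fell, where 56.1% of protein-coding genes rose and 6.02% fell. Of the 9 from 45% to below 50%, 4 rose and 2 fell, where 41.8% of protein-coding genes rose and 14.6% fell. Of the 15 at 50% or above, 4 rose (ARF1, GBF1, SEC16A and GOLGA3) and 7 fell. There 14.4% of protein-coding genes rose and 48% fell. The Spearman correlation of log2 fold change with GC content over the 42 genes, which share the same 6 libraries, was -0.68, and with transcript length 0.56. With the offsets these were -0.30 and 0.34. The median GC content of the 42 was 46.2% against 49.8% in all tested protein-coding genes, and their median transcript length 3751 against 3060.5 bases. In the same GC bands the median log2 fold change of the trafficking genes was 0.96, 0.40 and -0.20 from lowest to highest GC, and that of all tested protein-coding genes 0.76, 0.35 and -0.50. SEC16A, at 56.2% GC, rose against the direction of its band, as did ARF1, GBF1 and GOLGA3. COPZ1, at 47.7%, and GORASP2, at 49.8%, fell against theirs. Among these, GOLGA3 alone lost its call with the offsets.

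**Figure D4:**
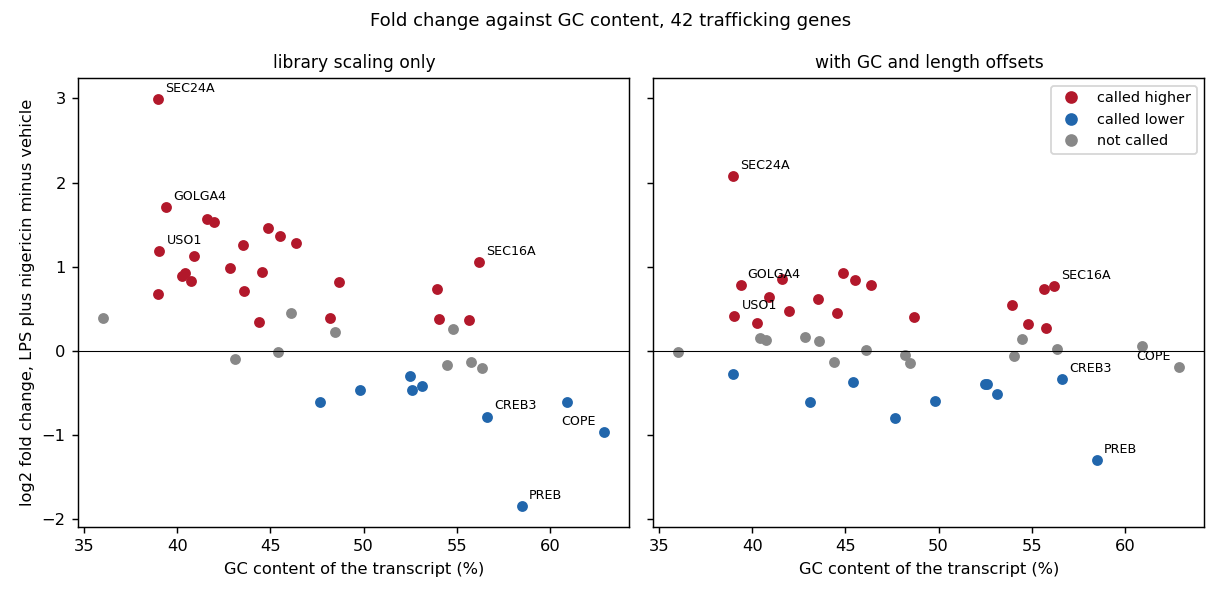
Log2 fold change (vertical axis) against transcript GC content (horizontal axis, percent) of the 42 genes, left with library scaling only and right with GC and length offsets, coloured by call in each fit. The downward slope on the left (Spearman -0.68) is shallower on the right (-0.30), where SEC24A and PREB remain the farthest from 0.

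The other genes of ER to Golgi transport also moved in both directions. Of 88 further genes tested, 41 rose, 23 fell and 24 did not pass (median log2 fold change 0.29), with 33 and 29 under library totals and 28 and 25 under the offsets. Of all tested genes, 28.9% rose and 26.4% fell, against 46.6% and 26.1% of these 88. With the offsets 23.4% of all fitted genes rose and 27% fell. Among 14 COPI and ARF regulators 5 rose and 5 fell, and 6 and 3 with the offsets (median 0.0913 against -0.18 without). The exchange factors ARFGEF2 (BIG2), from 18.4 ± 4.53 to 60.7 ± 8.48 CPM, and ARFGEF1 (BIG1), from 16.2 ± 4.17 to 44.2 ± 3.84 CPM, rose, and ARF6, the plasma membrane ARF, fell from 102 ± 7.87 to 60.02 ± 2.32 CPM (edgeR adjusted p = 0.000407, 0.000670 and 0.000861). Of 19 ER export genes 9 rose and 6 fell, but 6 and 8 with the offsets (median -0.0886 against 0.17 without). SURF4, a cargo receptor of ER export, rose from 303 ± 26.4 to 564 ± 21.3 CPM (log2 difference 0.90, and 1.04 with the offsets).

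Within the TRAPP tethering complex, TRAPPC8 rose from 7.74 ± 1.9 to 29.1 ± 3.14 CPM (log2 difference 1.91), while TRAPPC3 and TRAPPC4 fell by 0.89 and 0.84 on the log2 scale. TRAPPC1 and TRAPPC5 fell as well, at log2 differences of -1.09 and -1.17. TRAPPC4 shares 544 bases of exon with SLC37A4 and 260 with RPS25 on the opposite strand, and the part of those reads in its value was not tested. Of 13 further golgins and scaffold proteins 9 rose and RABAC1 alone fell, and 7 and 2 with the offsets (median 0.48 against 1.05 without). BICD2, a dynein adaptor, rose from 22.3 ± 2.3 to 52.1 ± 2.89 CPM, and GCC1, a trans-Golgi golgin, from 8.61 ± 1.25 to 20.5 ± 0.659 CPM. Both kept their size with the offsets, at 1.16 and 1.19. GCC1 shares 410 bases of exon with ARF5 on the opposite strand. Of 31 tethers, Rabs and SNAREs 14 rose and 7 fell, but 4 and 9 with the offsets (median -0.0462 against 0.30 without). Beside the counts of these golgins and tethers, 28.9% of all tested genes rose and 26.4% fell. With the offsets the shares of all fitted genes were 23.4% and 27%. BET1L, the intra-Golgi relative of BET1, fell 4.32-fold from 134 ± 12.4 to 31 ± 3.44 CPM (log2 difference -2.11 with SE 0.134, adjusted p = 4.12e-05 in edgeR). In the COG tethering complex, which steers COPI vesicles within the Golgi, COG8 fell 5.35-fold from 55.2 ± 7.42 to 10.3 ± 1.15 CPM, and COG3 and COG5 rose, at log2 differences of 1.85 and 0.91. The COG5 call was lost with the offsets (0.23, edgeR adjusted p = 0.258). On the opposite strand, COG8 shares 1245 bases of exon with VPS4A and 957 with NIP7, and COG5 shares 975 with HBP1. The part of those reads in the COG8 and COG5 values was not tested.

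The further genes listed for the Golgi stress response, which include the factors TFE3, MLX and CREB3L2, did not share a direction. ARF4, CREB3 and the golgins belong to this response too but are counted above and not here. ARF4 rose and CREB3 fell. Among the 8 golgins and stacking proteins 4 rose and 1 fell, and among the 13 further golgins and scaffold proteins 9 rose and 1 fell. Of the 11 further stress genes tested, 4 rose, 4 fell and 3 did not pass, where 28.9% of all tested genes rose and 26.4% fell. The counts of these 11 were 5 and 3 with the offsets, where 23.4% and 27% of all fitted genes rose and fell. Their median was 0.22 with the offsets and -0.21 without, so its sign turned. STX3, a SNARE among the reported TFE3 targets, was at 12.6, 7.32 and 12.3 CPM in the vehicle libraries and 65, 58.2 and 50.05 CPM after treatment and rose 5.38-fold (log2 difference 2.43 with SE 0.229, adjusted p = 0.000162 in edgeR), and was at 2.26 with the offsets. CREB3L2, a CREB3 relative, rose from 42.5 ± 8.97 to 104 ± 13.1 CPM (log2 difference 1.29). RAB20, also among those targets, fell 6.55-fold from 14 ± 1.77 to 2.14 ± 0.163 CPM (log2 difference -2.71 with SE 0.176, adjusted p = 4.67e-05 in edgeR). MLX, a transcription factor placed in the same response, fell from 89.4 ± 10.8 to 29.6 ± 3.18 CPM (log2 difference -1.60). MLX shares 770 bases of exon with PSMC3IP on the opposite strand. TFE3 itself was at 208 ± 33.2 CPM with vehicle and 194 ± 12.8 CPM with LPS plus nigericin and did not pass (log2 difference -0.10, edgeR adjusted p = 0.560), and was called higher at 0.38 with the offsets.

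Positions are those of GENCODE 29 on GRCh38. SEC24A (ENSG00000113615) lies on chromosome 5 from 134648789 to 134727823 (plus strand), and SAR1B (ENSG00000152700) lies on chromosome 5 from 134601144 to 134649271 (minus strand). PREB (ENSG00000138073) lies on chromosome 2 from 27130756 to 27134675 (minus strand). ARF4 (ENSG00000168374) lies on chromosome 3 from 57571363 to 57598220 (minus strand) and CREB3 (ENSG00000107175) lies on chromosome 9 from 35732335 to 35737004 (plus strand). ARCN1 (ENSG00000095139) lies on chromosome 11 from 118572390 to 118603033 (plus strand), GOLGA4 (ENSG00000144674) lies on chromosome 3 from 37243177 to 37366751 (plus strand) and GOLGB1 (ENSG00000173230) lies on chromosome 3 from 121663199 to 121749767 (minus strand). In all, 25 of the 42 genes have 50 or more exon bases in common with another gene, 17 of them with a gene on the opposite strand, and the counts of these genes can include reads of the other.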

How the data were processed

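RNA from 6 samples of T24 cells was sequenced, and the authors deposited raw read counts for each Ensembl gene and library in 1 table, per the file headers. The labels name the build hg38 in the submitters' processing notes and more than 1 company for RNA extraction. Aligner, counter, annotation and strand setting: not given in the sources used here. Columns were matched to samples by library name. The table held 37871 genes, 6043 at 0 in every library. Symbols came from the supplied gene name table (37840 identifiers matched), and a symbol with several identifiers was given to the most highly counted.

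Genes were filtered with filterByExpr (19170 left), scaled with TMM and tested with edgeR 4.0.16 in R 4.3.3 (robust quasi-likelihood fit, group as the only term, Benjamini-Hochberg adjustment at 0.05 over all tested genes). The SE of a log2 difference was derived from its size and the F statistic (size over root F). Totals of 66180407 to 89152224 counts leave counting error small beside the spread between libraries. No library repeated another (chi-square per degree of freedom between replicates 22.6 to 187). GC content and length are those of the longest APPRIS principal transcript in GENCODE 29, available for 18620 tested genes, and the offsets are a loess fit (span 0.3) to each library's log2 CPM deviations. Paralog ratios used exact permutation of libraries. Promoter sequences are RefSeq's, on GRCh38.p14, for 37 of 42 genes.

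The members and all gene lists were chosen with earlier results of these data known. The naming rule took every member, with values per library for up to 4 called members of smallest p in each role and for paralogs, and in each list of further genes the 2 of smallest p in each direction, plus TFE3. A gene that this rule takes is not reported here. Alternatives were RLE factors, library totals, DESeq2 1.42.0, limma-voom (limma 3.58.1), no filter, a threshold of 1 CPM in at least 3 libraries, a block for replicate number, the offsets, a fit without mitochondrial genes, and leaving out each library. The scripts were tested on simulated counts. Python 3.11.15 drew the figures.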

Additional observations from a re-analysis of the deposited data

How the results depend on the processing

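The count of trafficking genes called stayed between 28 and 36 in every alternative run, against 33, and that of all tested genes between 8341 and 11438. Leaving out 1 library gave 28 to 36 trafficking genes and medians of 0.33 to 0.61. The median was 0.14 with the GC and length offsets and 0.14 with the offsets and the replicate block together. Directions turned with the offsets, given first alone and then with the replicate block, for ARF5 (0.0635 and 0.0654), SAR1B (-0.27 and -0.27), SEC13 (0.27 and 0.28), GOLGA1 (-0.0516 and -0.0559), GOLGA3 (-0.0551 and -0.0577), GORASP1 (0.0173 and 0.0172), KDELR1 (0.14 and 0.15), KDELR2 (-0.13 and -0.13), BET1 (-0.00686 and -0.00433), GOSR2 (-0.14 and -0.13) and TFE3 (0.38 and 0.38). Leaving out each library in turn gave -0.26 to 0.00320 for SEC13, -0.36 to 0.22 for GOLGA5, -0.0765 to 0.0666 for KDELR3 and -0.22 to 0.0164 for TFE3. The cause of these turns was not tested. Calls were also lost for GOLGA1 and GOLGA3 with library totals and without a count filter, for KDELR2 with library totals and for ARF3 without a filter. No direction of a trafficking gene turned with RLE factors, library totals, DESeq2, limma-voom, either other count filter or the replicate block alone.

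Same-numbered replicates shared little. The correlations of their deviations from the group means were -0.0231, 0.0956 and -0.0236, not every library was closest to its own number, and the numbers were not taken to pair the samples. With the replicate block 32 trafficking genes and 10408 of all tested genes were called, with ARF3 and GOLGA1 lost and SEC23B gained. Counting error was small for these genes, and 3 libraries per group limit the precision.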

Other observations

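The same letters were counted in the promoters of the further ER to Golgi transport genes. Of 70 further genes with an entry, 12 held ACGTGGC (17.1%) and 3 held TGACGTGG (4.29%). Either sequence was in the promoters of 21 of the 37 trafficking genes (56.8%), and 8 held both, against 6.05% of tested protein-coding genes with either. Of those 21 genes, 14 rose, 4 fell and 3 did not pass, where 28.9% of all tested genes rose and 26.4% fell. Among all 42 trafficking genes, 57.1% rose and 21.4% fell. Among tested protein-coding genes, 41.5% of those with TGACGTGG and 37.7% of those with ACGTGGC rose, and 20.7% and 29.7% fell. With the GC and length offsets 10 of the 21 rose, 6 fell and 5 did not pass, where 23.4% of all fitted genes rose and 27% fell. No test was made of these shares.

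Of the genes outside the naming rule, TRAPPC1 and TRAPPC5 were given beside the other TRAPP genes, and FUT1 and ACBD3 were picked after their values were seen. FUT1, a fucosyltransferase of the Golgi, went from 8.79 ± 1.83 to 2.21 ± 0.154 CPM (log2 difference -1.99, edgeR adjusted p = 0.000241). ACBD3, a Golgi scaffold that binds giantin, went from 12 ± 3.65 to 27.7 ± 5.04 CPM (log2 difference 1.21, edgeR adjusted p = 0.00427). With the offsets FUT1 was at -1.77 and ACBD3 at 0.54.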
